A study of Mus musculus with 4 samples.

Results

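Accessible chromatin was described at the loci of Runx3 and Runx1 in cultured mouse CD8+ T cells with and without the transcription factors Tcf1 and Lef1. The members were the deposited DNase-seq peaks whose midpoint lay in chr4:134640000-134800000 for Runx3, or in chr16:92580000-92900000 for Runx1, in the mouse build mm9. Runx3 spans about 134.677 to 134.734 Mb and is read towards higher positions, and Runx1 spans about 92.602 to 92.826 Mb and is read towards lower ones. The 4 peak lists held 58 such peaks, which merged, where they overlapped by at least 1 bp, into 32 regions of 38986 in all. Of these, 14 lay at Runx3 and 18 at Runx1.

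DNase I cuts DNA where chromatin is accessible, and a peak is a stretch in which the sequenced ends pile up above the local background. Naive CD8+ T cells of the phenotype GFP+ TCRbeta+ CD62Lhi CD44lo-med were sorted from the spleen and then cultured for 72 h in medium with IL-7 plus IL-15. These cytokines keep T cells alive in the absence of antigen. Cells labelled Tcf1-/-Lef1-/- (double knockout, DKO) came from mice in which both genes were floxed, and wild-type cells (WT) from mice with intact genes, with 2 libraries of each genotype. Both groups carried the hCD2-Cre transgene, which is active in lymphocytes, and the Rosa26-lsl-GFP reporter, so that GFP marked cells in which Cre had acted. Age and sex are not given in the labels, nor is it said that replicates were separate animals, and their spread can be technical. The labelled cell type was not checked against marker genes, because no mm9 annotation was used here.

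Runx proteins bind DNA together with the partner CBFβ and either activate or silence genes. Runx3 is needed by CD8+ T cells to silence Cd4 and the helper factor ThPOK and to build the cytotoxic programme, while Runx1 acts earlier, in blood stem cells and thymocytes, and persists in mature T cells. Each gene is read from a distal promoter and from a proximal one inside the gene, which give proteins with different first residues. In CD8+ T cells Runx3 is known to be read mainly from the distal promoter. Tcf1 and Lef1 are HMG-box factors that guide T cell development.

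The promoter sequences are shown because the site at the 5′ end of each gene was called in all 4 libraries, and because the distal promoters of the 2 genes share a run of letters that the proximal promoters lack. They are RefSeq's, in GRCm38.p6, another build than the peaks', and run from 250 bases before to 50 after the annotated start. Each gene had 2 entries. Runx3 lies on the plus strand and its entries are chr4:135120395-135120694 and chr4:135152295-135152594. Runx1 lies on the minus strand and its entries are chr16:92826025-92826324 and chr16:92697280-92697579. Capitals mark the Runx motif TGTGGT or TGCGGT, searched on both strands.
Runx3 distal promoter: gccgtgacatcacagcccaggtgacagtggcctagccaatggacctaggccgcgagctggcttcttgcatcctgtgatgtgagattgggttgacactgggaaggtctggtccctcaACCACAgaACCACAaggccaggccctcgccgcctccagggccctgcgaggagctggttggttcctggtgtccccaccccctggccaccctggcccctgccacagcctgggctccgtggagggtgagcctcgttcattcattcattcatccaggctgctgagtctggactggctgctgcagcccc
Runx1 distal promoter: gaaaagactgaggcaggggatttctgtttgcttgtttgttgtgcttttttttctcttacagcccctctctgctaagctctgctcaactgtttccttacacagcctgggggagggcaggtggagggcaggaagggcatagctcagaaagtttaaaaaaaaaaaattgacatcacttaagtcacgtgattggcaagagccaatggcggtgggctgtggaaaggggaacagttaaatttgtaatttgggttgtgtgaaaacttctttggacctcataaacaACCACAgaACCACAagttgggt
Runx3 proximal promoter: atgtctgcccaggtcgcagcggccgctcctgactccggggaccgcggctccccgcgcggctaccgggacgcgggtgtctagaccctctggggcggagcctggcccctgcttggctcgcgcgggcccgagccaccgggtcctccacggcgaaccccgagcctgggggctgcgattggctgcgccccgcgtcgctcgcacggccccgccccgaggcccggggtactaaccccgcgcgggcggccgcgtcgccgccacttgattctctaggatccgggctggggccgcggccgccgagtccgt
Runx1 proximal promoter: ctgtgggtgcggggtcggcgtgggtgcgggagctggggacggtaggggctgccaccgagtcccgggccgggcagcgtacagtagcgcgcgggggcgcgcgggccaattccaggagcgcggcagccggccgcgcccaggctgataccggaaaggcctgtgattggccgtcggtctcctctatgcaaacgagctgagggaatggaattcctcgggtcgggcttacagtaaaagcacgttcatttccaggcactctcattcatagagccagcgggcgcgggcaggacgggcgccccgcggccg

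Each distal promoter held 2 Runx motifs, both as TGTGGT on the strand opposite to the gene and with their first bases 8 apart, and each proximal promoter held 0. At least 2 matches were found in 2.83% of the 32544 different promoter sequences of the same length, and at least 1 in 22.4%. The pair of motifs lay within a run of 18 bases, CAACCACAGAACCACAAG, that was identical in the distal promoters of Runx3 and Runx1. The same run was found in 4 of the 32544 promoters. The other two belonged to Runx2, the third gene of the family, and to Gm16225, a noncoding RNA gene next to Runx3. In Runx3 the run began 136 bases before the annotated start, and in Runx1 it began 26 bases after it. The proximal promoters were richer in G and C, at 77.3% for Runx3 and 69.0% for Runx1, with the distal ones at 63.7% and 45.0% and a median of 53.0% over all promoters. No promoter of either gene held the Tcf/Lef motif CTTTGA or CTTTGT on either strand, which 31.3% of all promoters held at least once. The ETS core GGAA, which 96.0% of all promoters held at least once on either strand, was found 2 times in the distal and 0 times in the proximal promoter of Runx3, and 4 and 6 times in those of Runx1. These matches are letters in 1 window and say nothing of binding.

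The DKO lists held 34788 and 21353 peaks for replicates 1 and 2, and the WT lists 17521 and 11073. The authors' fold enrichment sets the pileup at the summit over the local background, and no list held a peak with a fold under 4. Absence of a peak therefore means that a site did not pass the listing thresholds, and not that it was closed. In bulk DNA, a site open in fewer cells and a site less open in each cell cannot be told apart. Folds ran higher in the DKO lists at large: over the 8068 regions called in all 4 libraries the median fold was 13.2 and 9.59 in DKO replicates 1 and 2, against 7.51 and 6.61 in WT replicates 1 and 2. Folds are therefore given below as each list's own values, and the position of a site is compared by its rank within the same 8068 regions. Both DKO lists, with 55 and 57 peaks, and neither WT list, with 0, had peaks on chromosome Y, so that a difference in sex and the genotype cannot be told apart.

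The site at the 5′ end of Runx3 was called in every library and was among the strongest sites genome-wide by −log10 p in 3 of them. It lay at chr4:134676251-134676567, 317 bp wide, with its centre 591 bp before the approximate start of the gene. Its fold was 17.7 and 16.4 in DKO replicates 1 and 2, against 11.5 and 5.71 in WT replicates 1 and 2. Both DKO values lay above both WT values, as the medians of the shared regions did. The fragments piled up at the summit, solved from the deposited fold and p, numbered 81 and 69 in DKO replicates 1 and 2, against 54 and 20 in WT replicates 1 and 2. Their exact Poisson 95% intervals, which cover counting error only, were 64.3 to 101 and 53.7 to 87.3 for DKO and 40.6 to 70.5 and 12.2 to 30.9 for WT. Among the 8068 shared regions, 93.5% and 98.5% had a lower −log10 p in DKO replicates 1 and 2, against 97.7% and 39.6% in WT replicates 1 and 2. Ranked by fold these shares were lower, at 84.2% and 96.1% in DKO and 92.8% and 29.6% in WT. By either rank the genotypes overlapped, and WT replicate 2 stood alone. The 4 summits lay within 104 bp of each other.

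The site at the 5′ end of Runx1 was also called in every library but stood near the middle of the shared regions or below it by −log10 p, and below it by fold. It lay at chr16:92826181-92826606, 426 bp wide. Its fold was 12.7 and 7.53 in DKO replicates 1 and 2, against 6.54 and 4.35 in WT replicates 1 and 2, again with both DKO values above both WT values. The summit pileup was 55 and 27 fragments in DKO and 30 and 17 in WT, and here the genotypes overlapped. Among the shared regions, 61.5% and 36.4% had a lower −log10 p in DKO replicates 1 and 2, against 52.7% and 11.5% in WT replicates 1 and 2. Ranked by fold these shares were lower, at 45.0% and 24.6% in DKO and 30.9% and 3.27% in WT. The genotypes overlapped by either rank. The summits lay within 26 bp of each other, and those of DKO replicate 1 and WT replicate 1 were at the same base, 92826369.

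No region could be assigned to a proximal promoter, and the 3′ part of Runx3 held no peak in any library. In GRCm38 the annotated starts of Runx3 are 31.9 kb apart and those of Runx1 are 128.745 kb apart. Such a distance is not an mm9 position, and the proximal promoters were not placed in mm9. At Runx3 the longest stretch without a peak in any of the 4 lists ran for 66.4 kb, between the sites centred 16.3 and 83.0 kb downstream of the 5′ site. At Runx1 3 regions lay between 127.3 and 129.4 kb downstream of the 5′ site, and none was called in both libraries of a genotype. The one at chr16:92698975-92699147 had a fold of 6.06 in DKO replicate 2, against 8.33 in WT replicate 1, where it was the strongest peak of the window by fold. By −log10 p the site at 24.4 kb stood above it there, at 19.6 against 18.0. The ones at chr16:92698274-92698533 and chr16:92696927-92697153 were called in DKO replicate 1 with folds of 7.73 and 5.42 and in no other library. DKO replicate 1, the longest list, thus had no peak at the first of these 3 regions, although its nearest peak ended 441 bp away. Merging within 500 bp would join chr16:92698274-92698533 and chr16:92698975-92699147 into a single region. That region would have calls in both DKO libraries and in WT replicate 1.

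**Figure D1:**
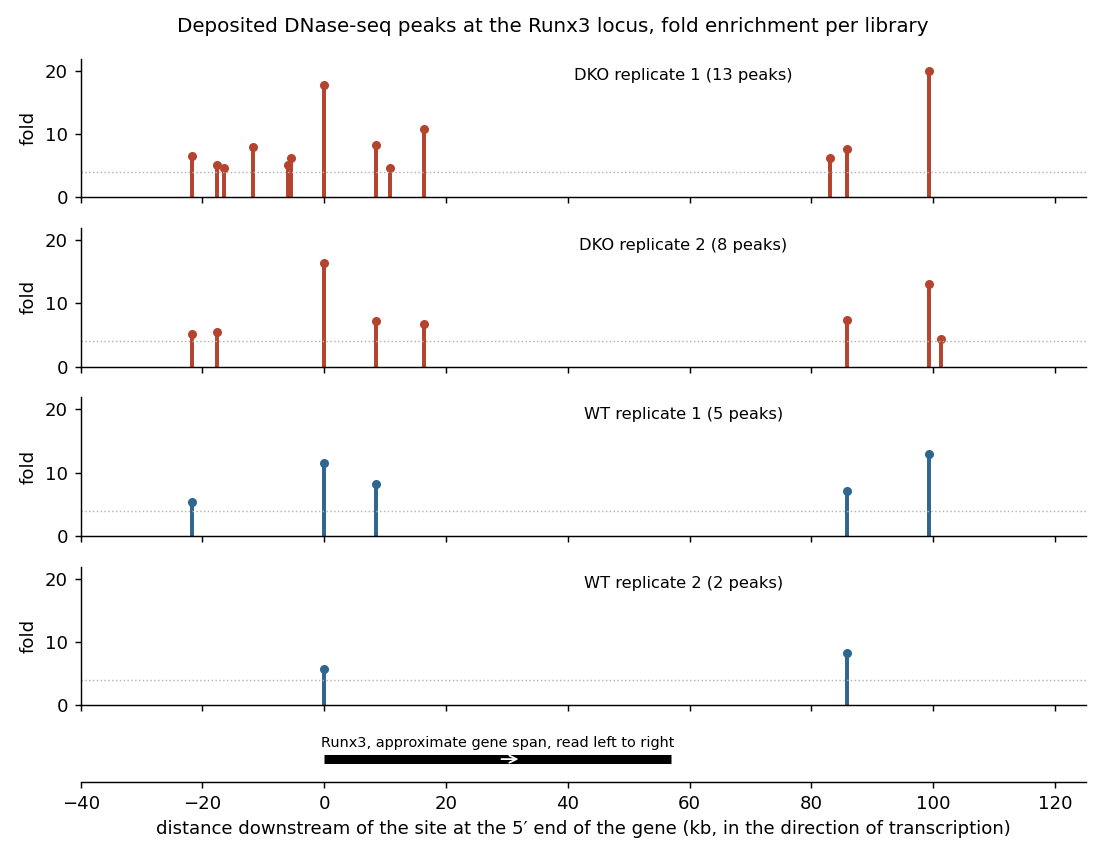
Peaks at the Runx3 locus in DKO replicates 1 and 2 and WT replicates 1 and 2, from top to bottom. The horizontal axis is the distance in kb downstream of the 5′ site, each stem is 1 deposited peak with its fold enrichment, the dotted line marks the fold of 4 under which no list held a peak, and the black bar is the approximate gene. All 4 libraries have a stem at 0 and at 85.9 kb, and none has a stem between 16.3 and 83.0 kb.

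**Figure D2:**
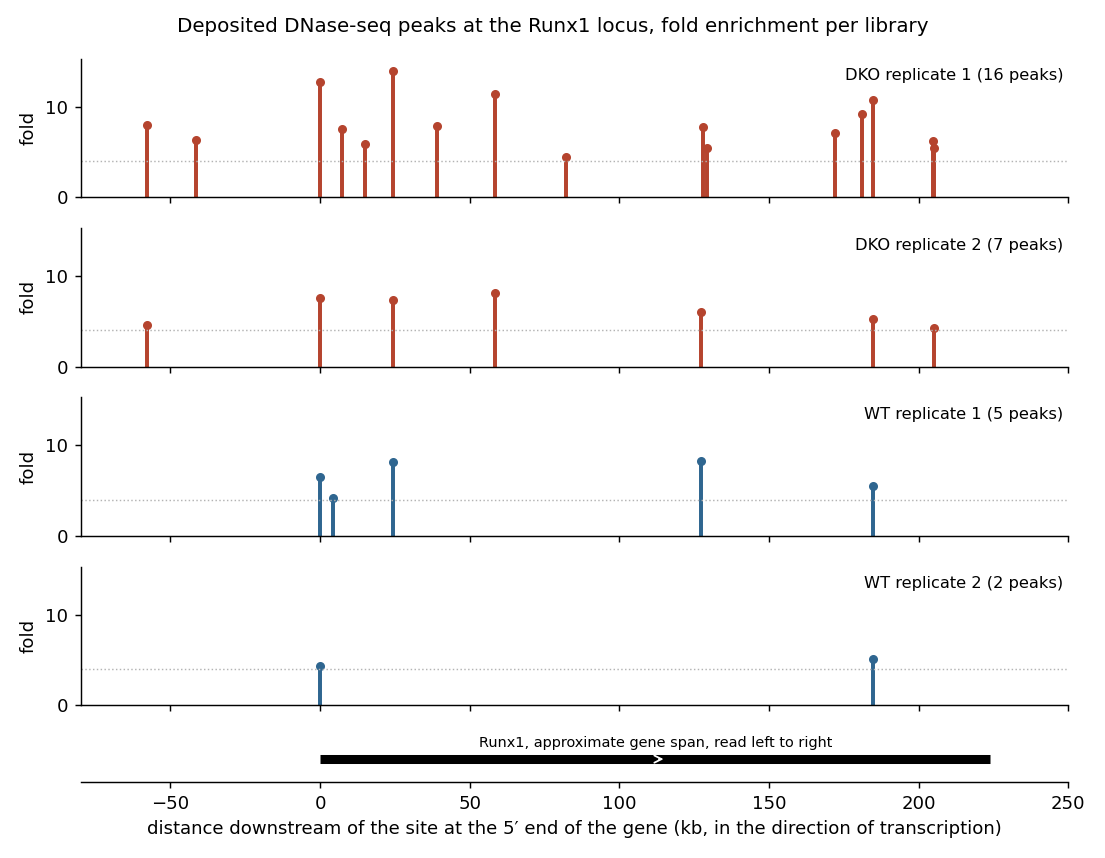
Peaks at the Runx1 locus, drawn with the same axes and symbols. All 4 libraries have a stem at 0 and at 184.9 kb, both DKO libraries and neither WT library have one at 58.5 kb, and 10 stems of DKO replicate 1 have no counterpart in another library.

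Beside the 5′ sites, 1 further site per locus was called in all 4 libraries, so that 4 of the 32 regions (12.5%) were, against 20.7% of all union regions. At Runx3 it lay beyond the gene at chr4:134762169-134762488, 85.9 kb downstream of the 5′ site. Its fold was 7.62 and 7.42 in DKO replicates 1 and 2, against 7.12 and 8.30 in WT replicates 1 and 2. The genotypes overlapped, and the pileups, 22 and 18 fragments in DKO and 23 and 26 in WT, lay inside each other's counting intervals. Its rank differed more. In DKO replicates 1 and 2, 4.81% and 20.6% of the shared regions had a lower −log10 p, against 42.8% and 80.8% in WT replicates 1 and 2. Both DKO ranks were below both WT ranks, which held for 19.5% of the 8068 shared regions. In WT replicate 2 this site, with a fold of 8.30, stood above the 5′ site of Runx3. In RefSeq's gene order Clic4, a chloride channel family gene, follows Runx3. Whether this site, or the site at 99.3 kb described below, lies in Clic4 was not determined in mm9.

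The shared site inside Runx1 lay towards the 3′ end of the gene, at chr16:92641408-92641668, 184.9 kb downstream of the 5′ site. Its fold was 10.7 and 5.22 in DKO replicates 1 and 2, against 5.47 and 5.11 in WT replicates 1 and 2. DKO replicate 1 stood above the other libraries, which were close together. The summits of DKO replicate 1 and both WT libraries fell between bases 92641485 and 92641490. The summit of DKO replicate 2 lay 150 bp from the first of these, and its peak began at 92641583, beyond the end of the WT peaks at 92641556 and 92641526. The region was joined across libraries by the longer peak of DKO replicate 1, and without that library it was no longer called in all.

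**Figure D3:**
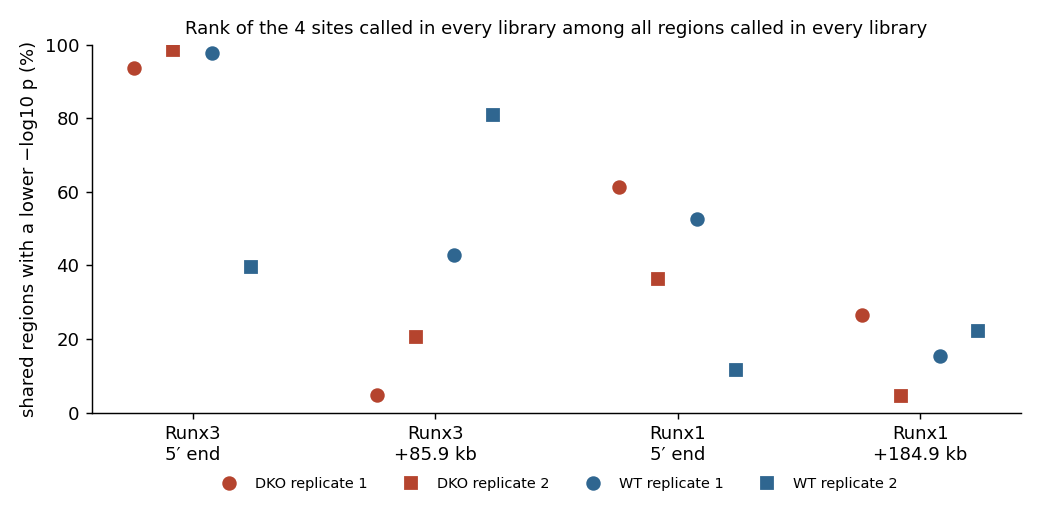
Rank of the 4 sites called in every library, as the percentage (vertical axis) of the 8068 regions called in all 4 libraries that had a lower −log10 p in the same library. Circles are replicate 1 and squares replicate 2, DKO in red and WT in blue, left to right. The 5′ site of Runx3 stands at 93.5% or above in 3 libraries and at 39.6% in WT replicate 2, and the +85.9 kb site stands lower in both DKO libraries than in both WT libraries.

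Another 4 of the 32 regions were called in every library but WT replicate 2, the shortest list, which 11.6% of all union regions were. The strongest was chr4:134775681-134775807, 99.3 kb downstream of the 5′ site of Runx3 and beyond the gene. Its fold was 19.9 and 13.1 in DKO replicates 1 and 2, against 12.9 in WT replicate 1. It was the strongest peak of the window by fold in DKO replicate 1 and in WT replicate 1, and it was narrow, with 3 summits within 13 bp. By −log10 p the 5′ site stood above it, at 78.2 against 52.1 in DKO replicate 1 and 42.9 against 31.8 in WT replicate 1. WT replicate 2 had no peak at the 99.3 kb site, although in the other lists 91.6%, 87.7% and 95.7% of peaks had a lower −log10 p. Inside Runx3, chr4:134684815-134685108, 8.55 kb downstream, had folds of 8.30 and 7.17 in DKO replicates 1 and 2, against 8.26 in WT replicate 1. Upstream of Runx3, at 21.8 kb, chr4:134654496-134654742 had folds of 6.52 and 5.23 in DKO replicates 1 and 2, against 5.45 in WT replicate 1. At both of these WT replicate 1 lay between the DKO libraries.

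At Runx1 the region called in every library but WT replicate 2 was chr16:92801896-92802172, in the first part of the gene, 24.4 kb downstream of the 5′ site. An intronic enhancer at a like distance from the distal start of Runx1 is known from mouse blood stem cells, and whether this is the same element was not tested. Its fold was 13.9 and 7.37 in DKO replicates 1 and 2, against 8.12 in WT replicate 1, so the genotypes overlapped. The 3 summits lay within 4 bp of each other. By fold it was the strongest Runx1 peak in DKO replicate 1 and the next after the strongest in WT replicate 1. By −log10 p the 5′ site stood above it in DKO replicate 1, at 46.6 against 40.6. In WT replicate 1 the 24.4 kb site had the highest −log10 p of the window, at 19.6.

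DKO-only regions, called in both DKO lists and in neither WT list, numbered 5 of 32 (15.6%), against 14.3% of all union regions. At Runx3 they were 2 of 14 and at Runx1 3 of 18, so the share at these loci was near that of the genome. WT-only regions numbered 0 of 32, against 0.631% of all union regions. The strongest DKO-only site lay inside Runx1 at chr16:92767782-92768047, 58.5 kb downstream of the 5′ site. Its fold was 11.5 and 8.18 in DKO replicates 1 and 2, from pileups of 34 and 18 fragments, and in DKO replicate 2 it was the strongest peak of the window by fold, though the sites at 0 and 24.4 kb had a higher −log10 p. The summits lay 6 bp apart. Both DKO calls were kept at both −log10 q minimums and at equal list lengths, where stricter settings could only have removed calls of either genotype.

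The other DKO-only regions were weaker. Inside Runx3, chr4:134692583-134692895, 16.3 kb downstream of the 5′ site, had folds of 10.9 and 6.72 in DKO replicates 1 and 2, and upstream of Runx3, at 17.5 kb, chr4:134658802-134658928 had 5.12 and 5.50. Near the 3′ end of Runx1, chr16:92621072-92621272 had folds of 5.43 and 4.23 in DKO replicates 1 and 2, and it is the region nearest to that end, 19.2 kb from it. Upstream of Runx1, at 58.0 kb, chr16:92884278-92884487 had 7.97 and 4.62. In all 5 DKO-only regions both folds were under the median fold of the shared regions in the same list, and of these 4 weaker ones none stayed DKO-only once the lists were cut to equal length. The WT lists do not show whether these sites were closed in WT cells.

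Calls in a single library made up 18 of the 32 regions, against 41.7% of all union regions, and most came from the longest list. DKO replicate 1 alone called 16 of 32 regions (50%), against 31.6% of all union regions, 6 at Runx3 and 10 at Runx1. Their folds ran from 4.46 to 9.14 with a median of 6.24, and 1 of the 16 lay above the median −log10 p of its own list. The strongest, chr16:92645081-92645184, lay 181.3 kb downstream of the 5′ site of Runx1, beside the shared site at 184.9 kb. The one nearest the 3′ end of Runx3, chr4:134759276-134759498, had a fold of 6.20 and lay 25.4 kb beyond that end. Of the 6 at Runx3, 4 lay upstream of the gene, between 5.39 and 16.5 kb from the 5′ site. DKO replicate 2 alone called chr4:134777567-134777700 with a fold of 4.30. WT replicate 1 alone called chr16:92822134-92822258, 4.20 kb inside Runx1, with a fold of 4.19, and this was the single region of the 32 with a WT call and no DKO call, against 6.4% of all union regions.

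Regions were counted by their place within each window. At Runx3, 6 of 14 regions lay upstream of the 5′ site, 3 in the gene body and 4 beyond the gene. At Runx1, 15 of 18 lay in the gene body, 2 upstream and 0 beyond the gene. The gene filled about 57 of 160 kb at Runx3 and about 224 of 320 kb at Runx1. These counts depend on where the windows end, so places cannot be compared between the loci. Beyond the 3′ end of Runx1 a further region lay 3.79 kb outside the window. Counted over the union of the 4 lists, both loci were denser than most stretches of the same width that held a region. DKO replicate 1 alone called 16 of these 32 regions, against 31.6% of all union regions. The windows were placed around the genes, while the stretches they are set against were not. The 14 regions in 160 kb at Runx3 were reached by 4.48% of the 7830 tiles of the same width, on a fixed grid, that held at least 1 region, whose median was 4. The 18 regions in 320 kb at Runx1 were reached by 10.7% of 4805 such tiles, whose median was 6.

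More peaks were listed at both loci in the DKO libraries. The Runx3 window held 13 and 8 peaks in DKO replicates 1 and 2, against 5 and 2 in WT replicates 1 and 2, or 10.5 ± 3.54 against 3.5 ± 2.12 (SD, n = 2 each). The Runx1 window held 16 and 7 peaks in DKO replicates 1 and 2, against 5 and 2 in WT replicates 1 and 2, or 11.5 ± 6.36 against 3.5 ± 2.12 (SD, n = 2 each). Both DKO counts exceeded both WT counts at each locus. The mean of the log2 counts was higher in DKO by 1.69 at Runx3 and by 1.74 at Runx1, and by 0.97 for the whole lists. The two-sided exact permutation p was 0.33 for each, the smallest that 2 libraries against 2 allow. Without WT replicate 2 the log2 differences were 1.03 and 1.08, and without DKO replicate 1 they were 1.34 and 1.15.

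As a share of each list the difference was small against its counting error. At Runx3 there were 3.74 and 3.75 peaks per 10000 listed peaks in DKO replicates 1 and 2, against 2.85 and 1.81 in WT replicates 1 and 2. The exact binomial 95% intervals were 1.99 to 6.39 and 1.62 to 7.38 for DKO, and 0.927 to 6.66 and 0.219 to 6.52 for WT. At Runx1 there were 4.60 and 3.28 per 10000 in DKO, with intervals of 2.63 to 7.47 and 1.32 to 6.75, against 2.85 and 1.81 in WT, with the same intervals as at Runx3. All 4 intervals overlapped at each locus. When every list was held to its 11073 peaks of highest −log10 p, the Runx3 window kept 2 and 4 peaks in DKO replicates 1 and 2, against 5 and 2 in WT replicates 1 and 2, a log2 difference of -0.16. The Runx1 window then kept 4 and 3 peaks in DKO and 3 and 2 in WT. At that length 1 DKO-only region was left, the site at 58.5 kb in Runx1, among 10 regions at both loci, and DKO-only regions made up 5.75% of 18389 union regions.

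**Figure D4:**
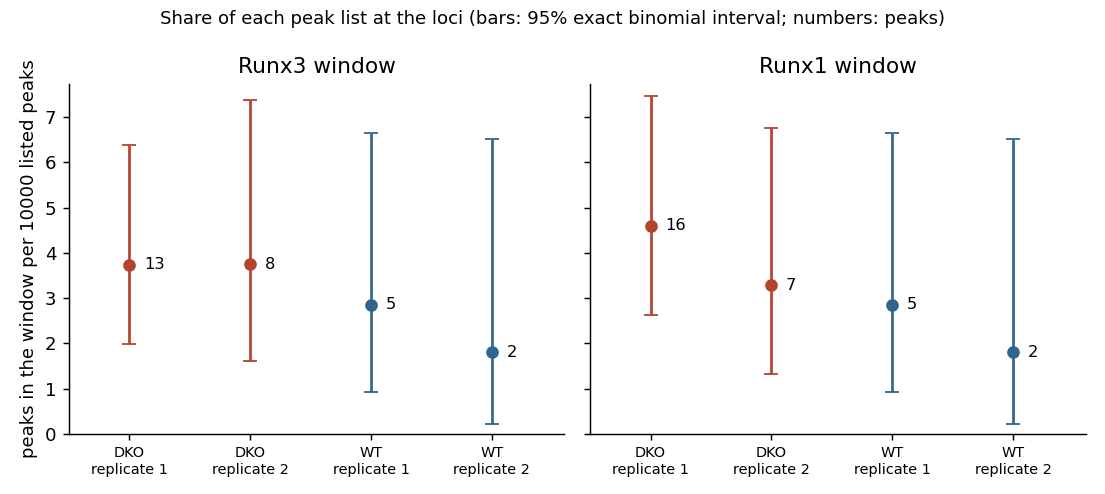
Peaks in the Runx3 window (left) and the Runx1 window (right) per 10000 peaks of each list, for DKO replicates 1 and 2 and then WT replicates 1 and 2. Bars are exact binomial 95% intervals and the printed numbers are the peaks. The intervals of the 4 libraries overlap in both panels.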

How the data were processed

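DNase-seq peak lists of 2 DKO and 2 WT libraries were used, grouped by the sample titles, with 1 list for each library, so that calls were not pooled. The submitters' processing notes name Bowtie2 2.2.5, FastQC and MACS2 2.1.1 and the build mm9; settings, a control library and read totals were not found in the sources used here. For each peak the authors deposited a fold enrichment (a ratio of summit pileup to local background), the −log10 p and −log10 q, a score of 10 times the −log10 q, and the summit offset. The smallest −log10 p in the lists was 5.18 to 5.62. Depth is therefore unknown; the lowest background, which grows with depth, was 1.23 and 1.15 fragments in DKO replicates 1 and 2 and 1.50 and 1.47 in WT replicates 1 and 2.

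Peaks overlapping by at least 1 bp were merged over the whole genome. Pileup and background were solved from fold and p for peaks with a −log10 p under 250, and matched the deposited −log10 p within 0.001 for 100% of peaks; the counting and the solution were tested on simulated data. Distances are between region centres. Tests were exact permutations over libraries. Named in full were regions called in all libraries, DKO-only and WT-only regions and those nearest the gene ends. The strongest of other patterns, and some weaker regions of those patterns, were added after their values were seen. The members and lists were chosen with earlier results of these data known. Cell type markers were planned but need mm9 genes. Python 3.11.15, pandas 2.3.3, numpy 2.4.6 and scipy 1.17.1 were used.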

Additional observations from a re-analysis of the deposited data

How the results depend on the processing

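Main counts were 2 regions called in all libraries and 2 DKO-only regions at Runx3, and 2 and 3 at Runx1. At a −log10 q of at least 5, Runx1 had 1 of each kind. At 10, Runx3 had 1 and 0 and Runx1 had 0 and 1. At equal list lengths, ranked by p or by fold, Runx3 had 1 and 0 and Runx1 had 1 and 1. Within the gene bounds, Runx3 had 0 and 1 and Runx1 had 1 and 2. There the 5′ sites of Runx3 and Runx1 dropped out, as their centres lay 591 and 393.5 bp outside the approximate bounds. Merging within 500 bp, or asking for an overlap of 50% of the narrower peak, left the main counts unchanged. The log2 difference in peak number at Runx3 was -0.16 at equal lengths ranked by p and 0.29 ranked by fold. It could not be computed at Runx1 for a −log10 q of 10, or at Runx3 within the gene bounds, where 1 library had 0 peaks.

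Leaving out each library in turn gave log2 differences of 1.03 to 2.35 at Runx3 and 1.08 to 2.40 at Runx1. Regions called in all numbered 2 to 5 and 1 to 3, DKO-only regions 2 to 8 and 3 to 13, and WT-only regions 0 to 0 and 0 to 1. The highest DKO-only counts came without DKO replicate 2, and 5 regions at Runx3 were called in all without WT replicate 2. Such counts can only rise when a list is left out, apart from regions that its peaks had joined.

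The next shares are of peaks lower in the same whole list, as means over the 2 libraries of a genotype. Ranked by fold, the mean was 96.6% in place of 98.8% for the 5′ site of Runx3 in DKO. For the site 17.5 kb upstream in DKO it was 18.2% in place of 27.1%. In WT it was 28.6% in place of 34.6% for the Runx1 site at 184.9 kb. For the 5′ site of Runx1 in WT it was 29.2% in place of 45.4%. That 45.4% covers unlike ranks, 70.5% in WT replicate 1 and 20.2% in WT replicate 2. The replicate number as a block left the differences at 1.69 and 1.74 (exact sign-flip p = 0.5, the smallest 2 pairs allow). Region by region, same-numbered libraries did not deviate together (r = -0.01 across 8068 regions). Such an r does not cover a shift of a whole list. In both genotypes replicate 1 had more listed peaks than replicate 2, in the whole list and at each locus. The labels do not say that a number marks a shared animal or day.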

Other observations

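The regions nearest outside the windows were as follows. Upstream of Runx3, chr4:134636299-134636698 was called in all 4 libraries, 39.9 kb from the 5′ site and 3.50 kb outside the window. Its fold was 5.86 and 7.02 in DKO replicates 1 and 2, against 5.09 and 4.996 in WT replicates 1 and 2. Both DKO values lay above both WT values, as the medians of the shared regions did. Each fold was under the median of the shared regions in its own list. Those medians were 13.2 and 9.59 in DKO replicates 1 and 2, and 7.51 and 6.61 in WT replicates 1 and 2. The rank of this site among the shared regions is not given here. On the other side of the Runx3 window, chr4:134800430-134800517 lay 0.47 kb outside it and was called in DKO replicate 1 alone with a fold of 5.82. Beyond the 3′ end of Runx1, chr16:92576142-92576282 was called in both DKO libraries and neither WT library, with folds of 6.73 and 6.37. Upstream of Runx1, the next region was chr16:92928063-92928228, 28.1 kb outside the window, called in both DKO libraries and neither WT library with folds of 5.24 and 5.25.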
